A study of Homo sapiens with 8 samples.

Results

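The nuclear transport machinery of colon cancer cells, that is the nucleoporins, the importins and exportins and the GTPase RAN, was followed across 8 RNA-seq libraries. Members were the protein-coding genes whose symbol is NUP followed by digits, or XPO, IPO, KPNA, KPNB or TNPO followed by a digit, together with TPR, RANBP2, CSE1L, AAAS, SEH1L, POM121, NDC1, RAE1 and RAN. This gave 55 genes of the 64253 in the count files, and all 55 were found there. The libraries came from 4 groups with 2 replicates each. HCT-8 is a human colon cancer line sensitive to 5-fluorouracil (5-FU), from which the resistant HCT-8/FU cells differ in their tolerance of the drug. The remaining groups, called CM of HCT-8 and CM of HCT-8/FU, were HCT-8 cells kept in conditioned medium (CM), which is medium taken from the named cells after 48 h of culture. The labels give Ham's F12 with fetal bovine serum and penicillin-streptomycin as the medium of all groups, and the study's methods name RPMI instead. Whether 5-FU was present in the cultures of HCT-8/FU at harvest, or in the medium taken from them, is not stated in the sources used here. The resistant cells are a single purchased line, so that resistance and any other property of that line cannot be told apart, and in bulk RNA neither can fewer cells of a kind and less RNA per cell.

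The nuclear pore complex is a large channel through the nuclear envelope. The Y complex and the inner ring form its scaffold, transmembrane nucleoporins anchor it, FG-repeat nucleoporins such as NUP62, NUP98 and NUP58 fill the channel, and filaments and a basket extend into the cytoplasm and the nucleus. Importins carry proteins with a nuclear localization signal inward and release them when RAN in its GTP-bound form binds, whereas exportins bind cargo together with RAN-GTP in the nucleus and release it in the cytoplasm. XPO1, also called CRM1, is the exportin for proteins with leucine-rich export signals and the target of the drug selinexor, and its transcript was one of those measured by RT-qPCR in the study.

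Counts on genes ranged from 5804124 to 34881349 per library. The lowest totals, from 5804124 to 9350753, belonged to HCT-8 replicate 1, HCT-8/FU replicate 2 and CM of HCT-8 replicate 1. These libraries also stood apart in records not aligned, with 25.1%, 20.0% and 29.6% against 3.58% to 4.43% in the other 5 libraries. The effect of leaving out each library is given where it removes a call, and for some members where it adds a call. Values are given in CPM, the usual depth-scaled counts, here over counts on genes and scaled by TMM, which evens out differences in RNA composition between libraries. The colon epithelial markers EPCAM, CDH1, KRT8, KRT18, KRT19, KRT20, VIL1, CDX2, CDX1 and LGALS4 were present in every library, with a summed level of 9487 to 11840 CPM. The leukocyte markers PTPRC and CD3E were at 0 counts throughout, CD14 stayed at or below 1.51 CPM, and the summed endothelial markers PECAM1, VWF and CDH5 at or below 2.45 CPM. Of the fibroblast markers, COL1A2 was at 0, and COL3A1 and DCN were at or below 0.16 CPM, but COL1A1 was found at 8.19 to 13.8 CPM and PDGFRB at 4.35 to 9.04 CPM. The summed fibroblast markers were 15.8 to 16.1 CPM in HCT-8, with HCT-8/FU at 12.5 to 17.1, CM of HCT-8 at 20.5 to 22.1 and CM of HCT-8/FU at 17.1 to 18.3, and their part in the results was not tested.

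The region just upstream of NUP50 is shown because this gene of the nuclear basket had the largest change of all 54 members tested in HCT-8/FU against HCT-8. The window of 250 bases ends at the first base before the gene, on the plus strand of GRCh38 at chr22:45163675-45163924, and overlaps an exon of the divergent transcript NUP50-DT. Capitals mark an E-box (CACGTG) and an ETS motif (CCGGAAG).
NUP50: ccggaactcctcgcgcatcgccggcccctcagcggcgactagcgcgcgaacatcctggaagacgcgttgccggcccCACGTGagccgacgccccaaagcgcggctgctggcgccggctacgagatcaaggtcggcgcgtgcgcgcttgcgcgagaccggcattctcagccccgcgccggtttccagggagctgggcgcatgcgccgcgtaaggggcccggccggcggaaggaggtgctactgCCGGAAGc
RANBP2 is shown beside it as the member with the largest increase under CM of HCT-8/FU. Its window lies on the plus strand at chr2:108719232-108719481, overlaps no exon and holds none of the motifs searched.
RANBP2: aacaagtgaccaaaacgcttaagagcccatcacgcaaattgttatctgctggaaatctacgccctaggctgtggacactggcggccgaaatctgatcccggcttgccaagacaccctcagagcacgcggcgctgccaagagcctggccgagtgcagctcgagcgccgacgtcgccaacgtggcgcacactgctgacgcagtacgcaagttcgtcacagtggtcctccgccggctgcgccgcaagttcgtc
Sequences are from RefSeq on GRCh38.p14. Motifs were searched on both strands as the letters CCGGAAG (ETS), CCAAT (NF-Y) and CACGTG (E-box), which do not overlap one another in sequence. Windows of this kind were found for 49 of the 55 members, some with several starts, which made 62 windows. The ETS letters were present in 21.0% of the 62 and in 8.52% of the 35116 windows of all genes, the NF-Y letters in 43.5% and 32.0%, and the E-box in 12.9% and 6.34%. Among the 18 windows of members called higher in HCT-8/FU, 2 held the ETS letters, 8 the NF-Y letters and 3 the E-box. These matches describe the letters only. KPNA4, KPNA5, KPNA7, KPNB1, NUP43 and XPO7 had no entry.

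The study's RT-qPCR primers for XPO1 place that assay within the gene measured here.
XPO1 forward: aggaaggagcagttggttca
XPO1 reverse: cttgagccattctttgctggg
The forward primer matches an exon of XPO1 at chr2:61537570-61537589 on the minus strand of GRCh38. The reverse primer has no unbroken match in the genomic span of the gene but lies in spliced transcripts of XPO1. In XPO1-201 both primers frame 176 bases, from base 768 to 943, and in XPO1-228 and XPO1-231 they frame 297 and 273 bases. The counts reported below cover all exons of the gene.

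Of the 55 members, 54 passed the filter on low counts and were tested among 20305 genes. A member was called higher or lower at a Benjamini-Hochberg adjusted p of edgeR's quasi-likelihood test of at most 0.05 if its log2 fold change was also 0.58 or more in size. In the resistant line (HCT-8/FU against HCT-8), 14 members were called higher and 0 lower. The 14 are 25.9% of the members tested, where 13.2% of all genes were called higher and 8.12% lower. By the adjusted p alone, 25 were higher and 9 lower, where 18.6% and 18.1% of all genes were, and 20 did not pass. The median log2 fold change of the members was 0.26 against 0.0082 for all genes tested. In the CM comparison, which sets cells in CM of HCT-8/FU beside those in CM of HCT-8, 9 members were called higher and 0 lower, where 7.97% of all genes were called higher and 1.28% lower, and the median was 0.096 against -0.059. In the own-medium comparison (CM of HCT-8 against plain HCT-8), 1 member was called higher and 2 lower, with 3.86% and 4.29% of all genes, and the median was -0.037 against 0.014. This last comparison shares its control with the first and its CM of HCT-8 libraries with the second. Each role had a member that was called in none of these comparisons, as the plot of changes by role shows.

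**Figure D1:**
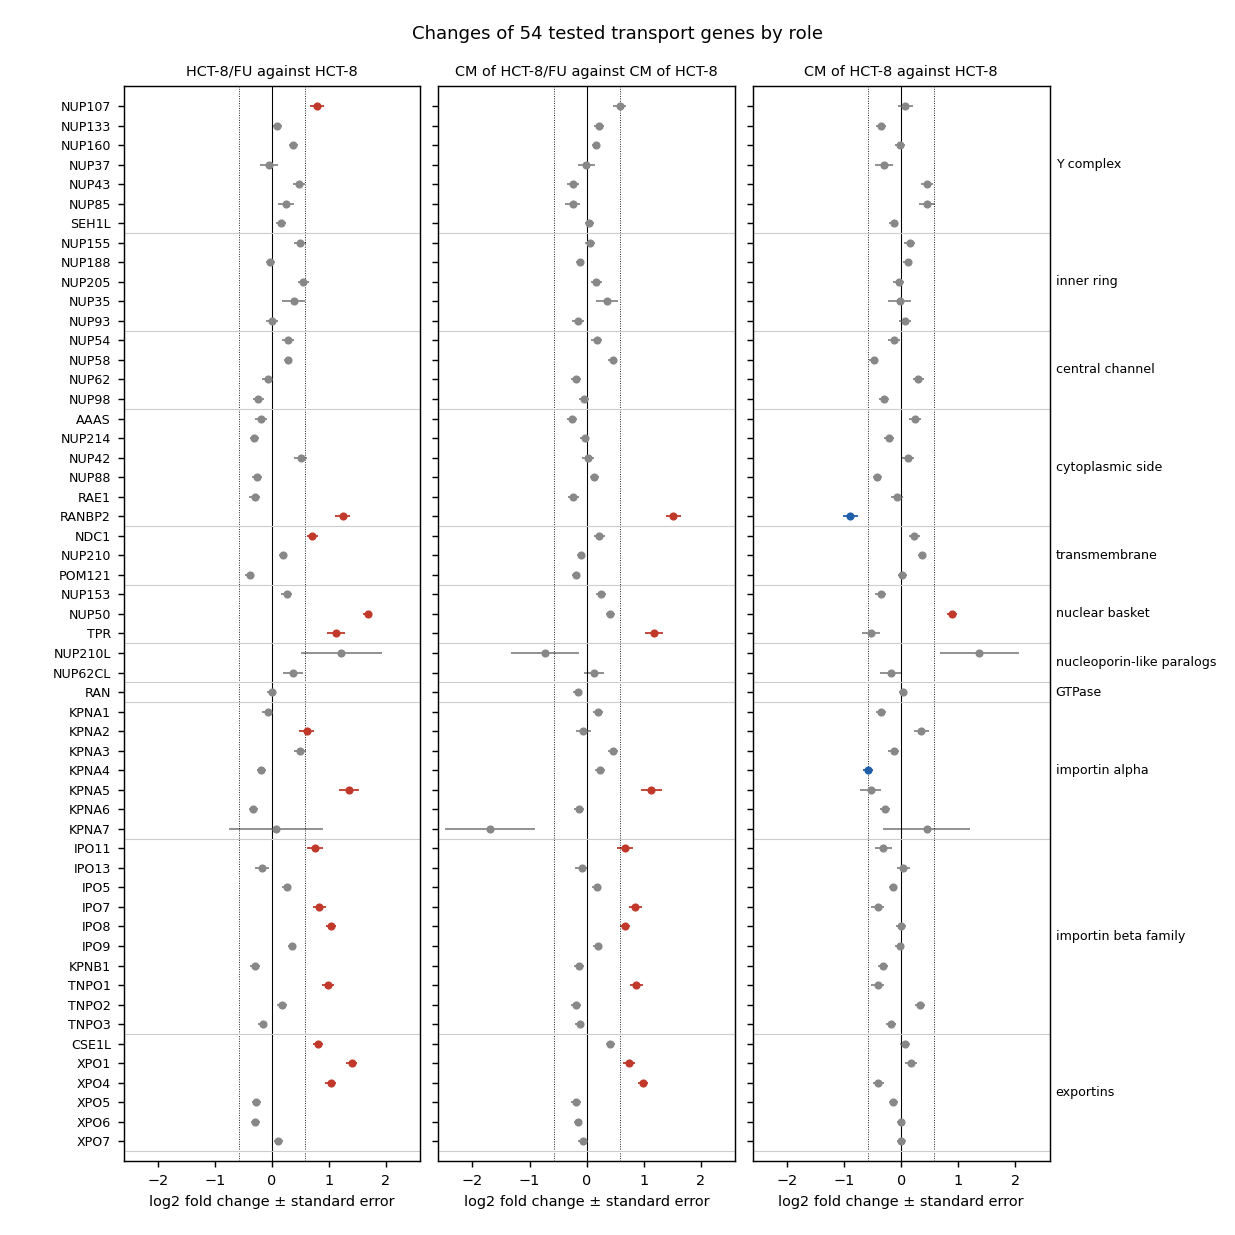
Log2 fold change (x axis) of the 54 tested members (y axis, by role) in each of 3 comparisons, with bars for the standard error, red for members called higher, blue for lower, grey for not called, and dotted lines at 0.58 in either direction. In HCT-8/FU, 14 members lie to the right as called, led by NUP50 at 1.68; in the CM comparison there are 9, led by RANBP2 at 1.52.

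The summed level of all members was 5418 and 5325 CPM in the replicates of HCT-8, with HCT-8/FU at 6651 and 6997, CM of HCT-8 at 5206 and 5046 and CM of HCT-8/FU at 5826 and 5821. Both HCT-8/FU libraries and both libraries in CM of HCT-8/FU thus lay above their controls. Per kilobase of exon, the highest mean levels over the 8 libraries were those of RAN (77.9 CPM per kb), IPO7 (53.4), and KPNB1 (37.5), closely followed by NUP50 (37.2). The lowest were IPO4 (0.053), NUP210L (0.11) and KPNA7 (0.24). Length here is that of all annotated exons of a gene merged, not of the transcripts made, and the order depends on it. RAN ranged from 71.9 to 84.4 CPM per kb and did not overlap with KPNB1, which ranged from 32.3 to 46.4, whereas IPO7 spread from 27.6 to 79.9 and overlapped with both.

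Exportins carried 3 of the 14 higher calls in HCT-8/FU, from 6 tested, where 13.2% of all genes were called higher. XPO1 (chr2:61476032-61538741) was measured at 119 and 110 CPM in HCT-8, with HCT-8/FU at 287 and 316, CM of HCT-8 at 146 and 113 and CM of HCT-8/FU at 216 and 214. Neither set of treated or resistant libraries overlapped with its controls. With 2 libraries per group this is common: 32.7% of all genes were higher without overlap in HCT-8/FU and 26.9% in the CM comparison. XPO1 was 2.63-fold higher in HCT-8/FU, a log2 fold change of 1.39 ± 0.10 (SE; edgeR adjusted p = 1.1e-07), and higher by 0.75 ± 0.10 in the CM comparison (edgeR adjusted p = 7.7e-05). Without CM of HCT-8 replicate 2 the latter was 0.57, below the fold threshold. CM of HCT-8 itself gave 0.17 ± 0.10 for XPO1 (edgeR adjusted p = 0.31).

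XPO4 (chr13:20777329-20903048), which exports among others the translation factor eIF5A, stood at 42.3 and 46.9 CPM in HCT-8, with HCT-8/FU at 91.2 and 92.3, CM of HCT-8 at 34.5 and 33.8 and CM of HCT-8/FU at 66.1 and 68.4. Its replicates lay close together in each group. The log2 fold changes of XPO4 were 1.03 ± 0.089 in HCT-8/FU (edgeR adjusted p = 4.7e-07) and 0.98 ± 0.089 in the CM comparison (edgeR adjusted p = 2.3e-06). CSE1L, the exportin that returns importin alpha to the cytoplasm, rose from 51.3 and 50.3 CPM to 92.3 and 84.2 CPM in HCT-8/FU, a log2 fold change of 0.81. It reached 70.0 and 71.5 CPM in CM of HCT-8/FU from 53.7 and 52.5 in its control, and its log2 fold change of 0.42 passed the adjusted p but not the fold threshold. XPO5, the exportin of precursor miRNAs, XPO6, that of actin, and XPO7 did not follow. They had log2 fold changes of -0.27, -0.29 and 0.11 in HCT-8/FU and of -0.19, -0.15 and -0.069 in the CM comparison. None of them was called, but XPO5 and XPO6 were lower in HCT-8/FU by the adjusted p alone.

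Among the import receptors of the importin beta family, 4 of the 10 tested were called higher in HCT-8/FU. The same 4, IPO7, IPO8, IPO11 and TNPO1, were called higher in the CM comparison. The share of all genes called higher was 13.2% in HCT-8/FU and 7.97% in the CM comparison. TNPO1, or transportin, which imports RNA-binding proteins with a PY signal, stood at 170 and 159 CPM in HCT-8, with HCT-8/FU at 334 and 313, CM of HCT-8 at 144 and 104 and CM of HCT-8/FU at 223 and 226. Its log2 fold changes were 0.98 and 0.87. IPO7, an importer of ribosomal proteins, was measured at 331 and 301 CPM in HCT-8, with HCT-8/FU at 576 and 544, CM of HCT-8 at 278 and 199 and CM of HCT-8/FU at 429 and 426, with log2 fold changes of 0.83 and 0.85. Its close relative IPO8 stood at 40.2 and 40.9 CPM in HCT-8, with HCT-8/FU at 82.8 and 84.2, CM of HCT-8 at 41.0 and 40.0 and CM of HCT-8/FU at 61.9 and 67.5, and its log2 fold changes were 1.04 and 0.68. In these 3 receptors every resistant or treated library was above both of its controls, as in 32.7% of all genes in HCT-8/FU and 26.9% in the CM comparison.

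IPO11 was the lowest of these, at 14.1 to 16.9 CPM in HCT-8 and 25.2 to 25.6 CPM in HCT-8/FU, with log2 fold changes of 0.75 in HCT-8/FU and 0.68 in the CM comparison. Both calls of IPO11 rested on single control libraries: without HCT-8 replicate 2 the first was 0.57, and without CM of HCT-8 replicate 1 the second was 0.57. In addition, 17.7% of its 75-base stretches are shared with other genes, the most with LRRC70, which lies in the same place. KPNB1, importin beta itself, the partner of importin alpha in classical import (chr17:47649476-47685505), was not among the members called. It stood at 478 and 446 CPM in HCT-8, with HCT-8/FU at 339 and 414, CM of HCT-8 at 380 and 359 and CM of HCT-8/FU at 342 and 333, so that HCT-8 was the highest group. The log2 fold changes of KPNB1 were -0.30 ± 0.087 in HCT-8/FU (edgeR adjusted p = 0.013) and -0.13 ± 0.086 in the CM comparison (edgeR adjusted p = 0.33). IPO5 and IPO9 were at 0.26 and 0.35 in HCT-8/FU, past the adjusted p alone, and IPO13, TNPO2 and TNPO3 were between -0.18 and 0.18 there.

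Importin alpha, the adaptor that reads the classical localization signal, is encoded by 7 members, KPNA1 to KPNA7. KPNA5 (chr6:116681187-116741867) was scarce, at 6.45 and 7.13 CPM in HCT-8, with HCT-8/FU at 17.6 and 17.4, CM of HCT-8 at 4.72 and 4.75 and CM of HCT-8/FU at 11.3 and 9.47. Its resistant and treated libraries were clear of the controls, as in 32.7% of all genes in HCT-8/FU and 26.9% in the CM comparison. The log2 fold changes of KPNA5 were 1.35 ± 0.17 in HCT-8/FU (edgeR adjusted p = 2.1e-05) and 1.13 ± 0.18 in the CM comparison (edgeR adjusted p = 0.00033). KPNA2 (chr17:68035636-68047364), an importin alpha linked to proliferation, stood at 68.2 and 61.7 CPM in HCT-8, with HCT-8/FU at 82.2 and 120, CM of HCT-8 at 80.5 and 83.7 and CM of HCT-8/FU at 79.5 and 78.7. The replicates of HCT-8/FU lay further apart than those of the other groups. KPNA2 was called higher in HCT-8/FU at 0.61 ± 0.13 (edgeR adjusted p = 0.0018), but this was 0.35 when HCT-8/FU replicate 2 was left out and 0.51 when HCT-8 replicate 2 was, both under the threshold. The CM comparison gave -0.055 ± 0.13 (edgeR adjusted p = 0.81).

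KPNA4 (chr3:160495007-160565571), also known as importin alpha 3 and a carrier of NF-kappaB subunits, was measured at 109 and 105 CPM in HCT-8, with HCT-8/FU at 93.8 and 95.1, CM of HCT-8 at 76.4 and 67.5 and CM of HCT-8/FU at 84.1 and 84.2. It fell by 0.58 ± 0.083 on the log2 scale in the own-medium comparison (edgeR adjusted p = 0.00021). The value lay at the threshold, being -0.49 when CM of HCT-8 replicate 2 was left out and -0.56 when HCT-8 replicate 1 was. KPNA3 was higher at 0.49 in HCT-8/FU and 0.46 in the CM comparison and KPNA6 lower at -0.33 in HCT-8/FU, each past the adjusted p alone, and KPNA1 gave -0.074 and 0.20. Taken as shares of the summed CPM per kb of the importin alpha genes, KPNA6 held 33.1% and 34.7% in HCT-8, with HCT-8/FU at 24.3% and 25.3%, CM of HCT-8 at 32.3% and 30.8% and CM of HCT-8/FU at 26.3% and 26.5%. The share of KPNA3 was 21.4% and 20.8% in HCT-8, with HCT-8/FU at 29.9% and 23.6%, CM of HCT-8 at 22.0% and 21.4% and CM of HCT-8/FU at 27.0% and 27.8%. By this measure KPNA6 was the largest contributor in both HCT-8 and CM of HCT-8 libraries, and these shares are given as a description. Each length was that of all annotated exons merged, 7457 bases for KPNA6 and 7365 for KPNA2, not that of the transcripts made. The shares and their order depend on this choice.

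RAN (chr12:130872037-130877678), the GTPase that gives transport its direction, stood at 378 and 362 CPM in HCT-8, with HCT-8/FU at 346 and 394, CM of HCT-8 at 359 and 394 and CM of HCT-8/FU at 336 and 339. The ranges of HCT-8 and HCT-8/FU overlapped, and the log2 fold change of RAN was -0.0014 ± 0.078 (edgeR adjusted p = 0.99). The CM comparison gave -0.16 ± 0.077 (edgeR adjusted p = 0.17). Of the 6 genes of the RAN cycle outside the members, RCC1, RANGAP1, RANBP1, RANBP3, NUTF2 and RANGRF, 1 was called lower in HCT-8/FU, RANGRF at -0.62, and 0 were called in the CM comparison. Of all genes, 8.12% were called lower in HCT-8/FU. RANBP1, which assists hydrolysis of RAN-GTP, was called higher in the own-medium comparison at 0.70, where 3.86% of all genes were. When each library was corrected for its GC content and exon length trends, RANGRF was at -0.43 and no longer called, whereas RANBP1 was called higher in HCT-8/FU at 0.72 and was at 0.57, not called, in the own-medium comparison. With that correction 15.3% of all genes were called in HCT-8/FU.

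The nuclear basket had 2 of its 3 genes among the calls in HCT-8/FU, where 13.2% of all genes were called higher. NUP50 (chr22:45163925-45188017), which binds importin alpha and promotes cargo release, stood at 137 and 150 CPM in HCT-8, with HCT-8/FU at 465 and 454, CM of HCT-8 at 287 and 247 and CM of HCT-8/FU at 355 and 355. All 6 libraries outside the HCT-8 group were thus above both HCT-8 libraries, and the share of all genes for which this holds was not counted. NUP50 was 3.19-fold higher in HCT-8/FU, a log2 fold change of 1.68 ± 0.083 (edgeR adjusted p = 3.6e-09), and it was the 1 member called higher in the own-medium comparison, at 0.89 ± 0.082 (edgeR adjusted p = 5.5e-06). CM of HCT-8/FU added 0.41 ± 0.079 over CM of HCT-8, past the adjusted p (0.0017, edgeR) but not the fold threshold.

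TPR (chr1:186311652-186375693), the main filament of the basket, was measured at 83.9 and 79.5 CPM in HCT-8, with HCT-8/FU at 191 and 161, CM of HCT-8 at 72.4 and 44.03 and CM of HCT-8/FU at 131 and 126. The CM of HCT-8 replicates were the furthest apart relative to their level. The log2 fold changes of TPR were 1.12 ± 0.15 in HCT-8/FU (edgeR adjusted p = 3.7e-05) and 1.19 ± 0.16 in the CM comparison (edgeR adjusted p = 6.4e-05). In the own-medium comparison it was -0.53, past the adjusted p alone, and -0.88 without CM of HCT-8 replicate 1. NUP153, which anchors the basket to the ring, was at 0.26 and 0.25 in HCT-8/FU and in the CM comparison, neither called.

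On the cytoplasmic side, RANBP2 (chr2:108719482-108785810), the large filament protein that docks SUMO-modified RANGAP1, was the one gene of 6 called. It stood at 117 and 109 CPM in HCT-8, with HCT-8/FU at 274 and 256, CM of HCT-8 at 74.1 and 50.1 and CM of HCT-8/FU at 178 and 170. No group overlapped with another, and the share of all genes for which this holds was not counted. The log2 fold changes of RANBP2 were 1.24 ± 0.12 in HCT-8/FU (edgeR adjusted p = 2.0e-06) and 1.52 ± 0.13 in the CM comparison (edgeR adjusted p = 1.4e-06), and it fell by 0.89 ± 0.13 in the own-medium comparison (edgeR adjusted p = 0.00025). RANBP2 shares 10.6% of its 75-base stretches with other genes, the most with its copy RGPD5. Reads from such stretches can align in more than 1 place, and records that did not align uniquely were counted to no gene. Each RGPD gene had at most 8.36 CPM. The messenger export factors of this side, NUP214, NUP88 and RAE1, were at -0.31, -0.26 and -0.30 in HCT-8/FU, past the adjusted p alone. NUP88 overlaps RABEP1 and shares 28.7% of its 75-base stretches with other genes, the most with RABEP1. Whether reads were counted by strand is not stated in the sources used here. NUP42, which works with the mRNA export helicase, was at 0.50 in HCT-8/FU and 0.020 in the CM comparison, and AAAS at -0.20 and -0.26.

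**Figure D2:**
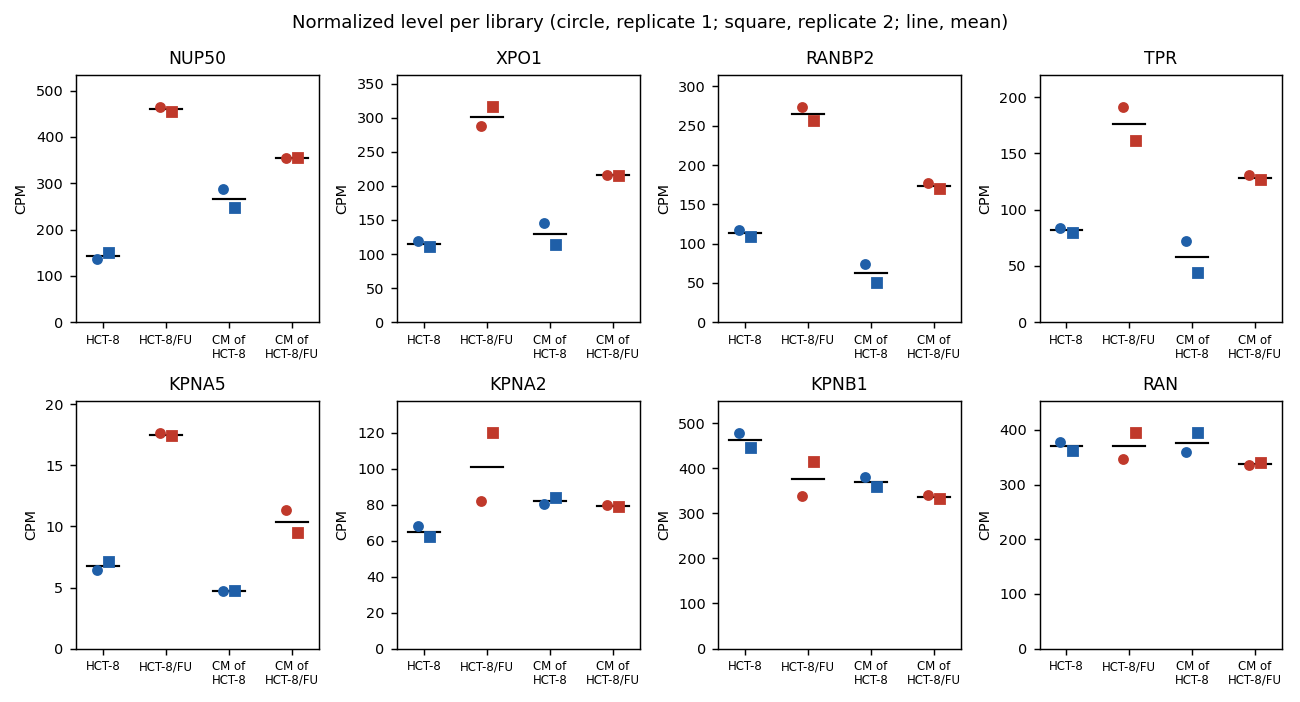
CPM (y axis, from 0) of 8 members in the 4 groups (x axis), with circles for replicate 1, squares for replicate 2, lines for group means and red for HCT-8/FU and its CM. NUP50 lies above HCT-8 in all 3 other groups, RANBP2 and TPR are lowest in CM of HCT-8, and RAN overlaps between HCT-8 and HCT-8/FU.

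The scaffold was mostly outside the calls. In HCT-8/FU 13.2% of all genes were called higher and 8.12% lower. Of the 7 Y complex genes, NUP107 was called in HCT-8/FU, at 37.3 and 35.9 CPM against 22.9 and 20.2 in HCT-8, a log2 fold change of 0.79. NUP107 was at 31.6 and 34.9 CPM against 19.6 and 24.1 in the CM comparison. Its 0.58 ± 0.12 there fell just below the threshold before rounding (edgeR adjusted p = 0.0029). With single libraries of that comparison left out, it ranged from 0.46 to 0.77, on both sides of the threshold. The other Y complex genes in HCT-8/FU lay between -0.051 (NUP37) and 0.48 (NUP43). None of the 5 inner ring genes was called in any of the 3 comparisons, the nearest being NUP205 at 0.55 and NUP155 at 0.49 in HCT-8/FU. With single libraries of that comparison left out, NUP205 ranged from 0.45 to 0.66, on both sides of the threshold. The 4 channel genes were likewise not called, with NUP58 and NUP54 at 0.28 each, NUP62 at -0.073 and NUP98 at -0.24 in HCT-8/FU. By the adjusted p alone, 1 of these genes was higher there and NUP98 was lower. Of the 3 transmembrane genes, NDC1, which anchors the pore in the membrane, was called in HCT-8/FU, at 69.6 and 83.6 CPM against 46.2 and 46.3, a log2 fold change of 0.71. It was at 64.5 and 61.6 CPM against 54.7 and 53.6 in the CM comparison, a log2 fold change of 0.22 that did not pass. NUP210 gave 0.20 and -0.093, and POM121 -0.39 and -0.19. In HCT-8/FU NUP210 was higher and POM121 lower by the adjusted p alone. POM121 shares 51.9% of its 75-base stretches with other genes, the most with POM121C, and is uncertain for that reason.

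A few members were hardly measured. IPO4 was left out by the filter, at 2 and 9 counts in HCT-8, with HCT-8/FU at 8 and 1, CM of HCT-8 at 3 and 10 and CM of HCT-8/FU at 5 and 8. Other genes share 53.3% of its 75-base stretches. The one that shares the most lies in the same place and had 0 to 4 counts. The part of such overlap in the low counts of IPO4 was not tested. KPNA7 had 1 to 28 counts and NUP210L 4 to 33 counts per library, and their log2 fold changes carried standard errors of 0.82 and 0.71 in HCT-8/FU against HCT-8. A change in these 3 genes was not detectable at this depth. NUP62CL, at 8.63 to 15.04 CPM, was at 0.37 in HCT-8/FU and was not called.

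The comparison of the resistant line and that of the conditioned medium have no library in common. All 9 members called in the CM comparison were also among the 14 called in HCT-8/FU, which is 100% of the former and 64.3% of the latter. The overlap over all genes was not counted, so these shares have no background beside them. All 9 had an exon GC content below the members' median of 43.7%. Of all genes below it, 32.9% were called higher in HCT-8/FU and 24.8% in the CM comparison. The 5 called in HCT-8/FU alone were CSE1L, KPNA2, NDC1, NUP107 and NUP50. Whether such members differ between the comparisons was tested as the difference of both log2 fold changes. Of the 54 members, 4 were called in this test, all higher in the resistant line, where 3.55% of all genes were called higher and 4.14% lower. NUP50 differed by 1.26 ± 0.11 (edgeR adjusted p = 6.1e-06) and XPO1 by 0.65 ± 0.14 (edgeR adjusted p = 0.0075). NUP43, a Y complex gene on chr6:149724315-149749665, was the next, at 32.8 and 32.7 CPM in HCT-8, with HCT-8/FU at 41.9 and 51.1, CM of HCT-8 at 42.9 and 46.1 and CM of HCT-8/FU at 37.4 and 38.5. It lay above its control in HCT-8/FU and below it in the CM comparison, and the difference was 0.71 ± 0.15 (edgeR adjusted p = 0.0059). KPNA2 differed by 0.67 ± 0.18 (edgeR adjusted p = 0.027). By the adjusted p alone, 9 members differed, where 11.6% of all genes did.

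Several calls of the difference test depended on single libraries. The call of NUP50 held with every library left out, whereas 1 member was called when HCT-8 replicate 2 was left out and 2 when HCT-8/FU replicate 2 was. XPO1 was at 0.46 when CM of HCT-8 replicate 1 was left out, 0.51 when HCT-8 replicate 2 was and 0.58 when HCT-8/FU replicate 2 was. NUP43 was called in 7 of 8 such fits and KPNA2 in 3 of 8. The call of NUP43 was lost without HCT-8 replicate 2, where its difference was 0.62 (edgeR adjusted p = 0.068). KPNA2 ranged from 0.40 without HCT-8/FU replicate 2 to 0.94 without HCT-8/FU replicate 1, and its call was also lost without either HCT-8 library and without either library in CM of HCT-8/FU. For RANBP2 the difference was -0.28 ± 0.18 (edgeR adjusted p = 0.37), for TPR -0.063 ± 0.22 (0.91), for KPNA5 0.21 ± 0.25 (0.67) and for XPO4 0.046 ± 0.13 (0.88), and a p of this size does not show that the changes were alike.

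**Figure D3:**
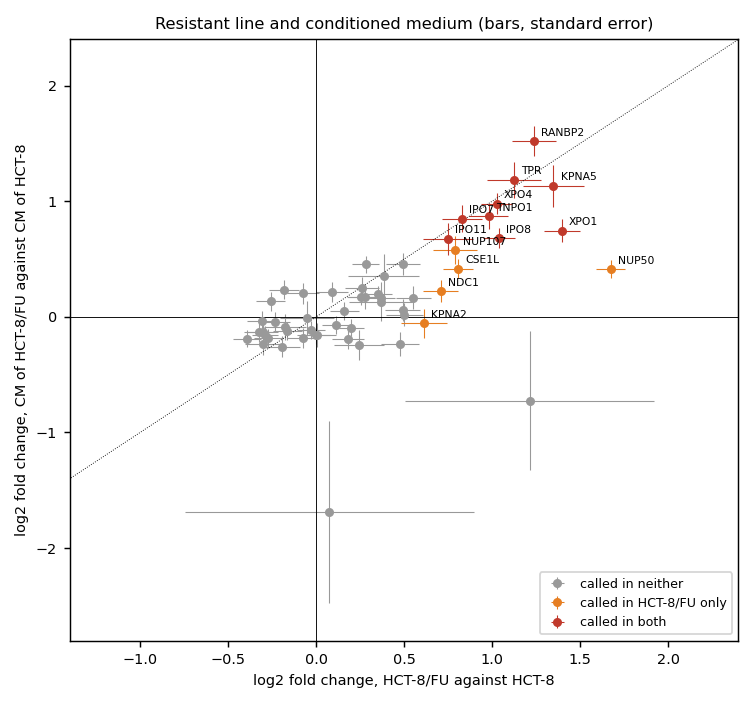
Log2 fold change of each of 54 members in HCT-8/FU against HCT-8 (x axis) and in the CM comparison (y axis), with standard error bars and a dotted line of equal change. The 9 members called in both lie in the upper right, NUP50 (1.68, 0.41) is furthest below the line among those called, and the low points with long bars are KPNA7 and NUP210L.

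The changes followed the base composition of the genes. Over the 54 members, the Spearman correlation of log2 fold change with the GC content of the exons was -0.62 in HCT-8/FU, -0.82 in the CM comparison and 0.53 in the own-medium comparison, against -0.40, -0.40 and 0.30 over all genes with a GC content. For the difference it was 0.021. These points share the same libraries, so the values are descriptions. Below the members' median GC content of 43.7%, 13 of 27 members were called higher in HCT-8/FU, where 32.9% of all genes below it were. At or above it, 1 of 27 was called, NUP50, where 5.10% of all genes were. The CM comparison had 9 of 27 below it against 24.8% and 0 of 27 at or above it against 1.03%.

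When each library was corrected for GC content and exon length, which takes away any change that runs along these properties, technical or not, 6 members were called in HCT-8/FU, where 15.3% of all genes were. NUP50 (1.48), XPO1 (0.87), IPO8 (0.61) and RANBP2 (0.59) were higher, as before, and KPNA4 (-0.76) and NUP37 (-0.59) were lower, so that the calls were no longer all in one direction. In the CM comparison, 3 members were called, where 4.80% of all genes were, with RANBP2 (0.81) and TPR (0.63) higher and NUP54 (-0.60) lower, and XPO1 was at 0.17. In the own-medium comparison, NUP50 was the 1 member called, where 5.48% of all genes were, at 0.98, and RANBP2 was at -0.53. The difference between the comparisons was 1.24 for NUP50, 0.70 for XPO1 and 0.65 for NUP43, and these 3 remained called, where 6.75% of all genes were, while KPNA2 at 0.64 did not. The cause of the shift with GC content was not tested.

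**Figure D4:**
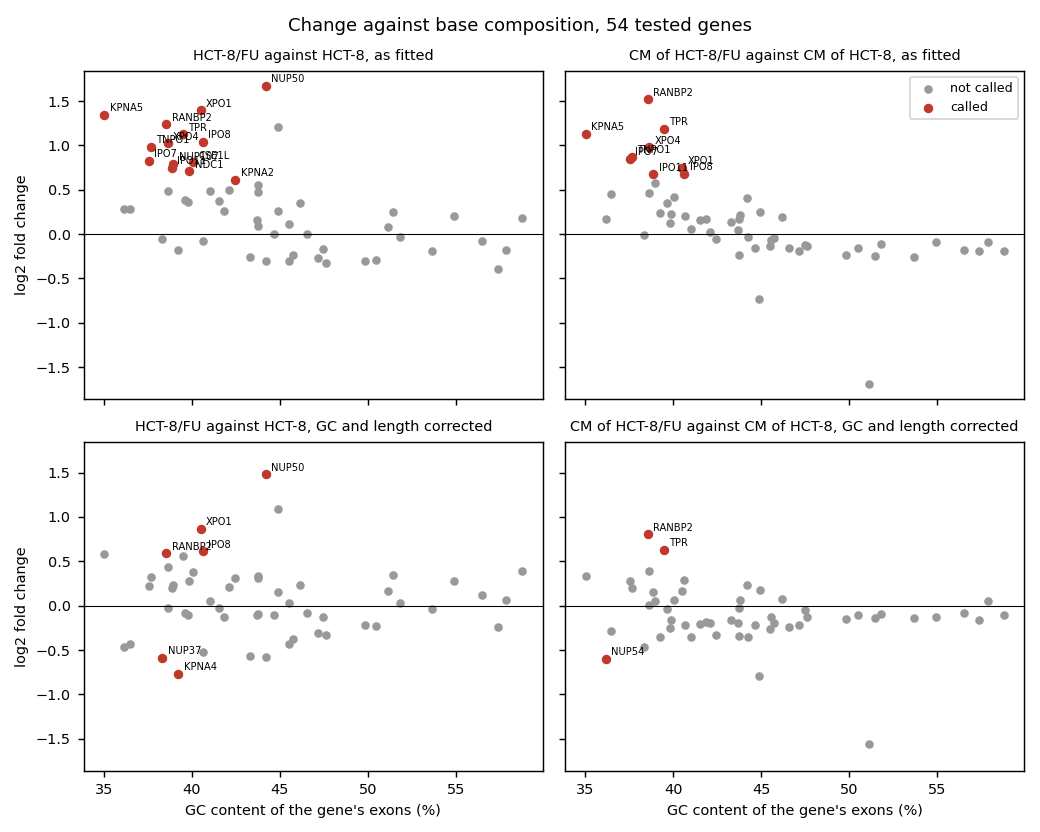
Log2 fold change (y axis) of 54 members against the GC content of their exons in percent (x axis), as fitted (top) and after correction for GC content and length (bottom), for HCT-8/FU against HCT-8 (left) and the CM comparison (right), with called members in red and named. As fitted, the calls sit at low GC content apart from NUP50; after correction 6 and 3 members are called.

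Genes that work beside the members were taken from lists set by function. Of 6 pore and basket partners (SEC13, AHCTF1, POM121C, GLE1, SENP1 and SENP2), 1 was called higher and 1 lower in HCT-8/FU, and 1 higher in the CM comparison. Of all genes, 13.2% were called higher and 8.12% lower in HCT-8/FU, and 7.97% higher in the CM comparison. AHCTF1, or ELYS, which seeds pore assembly on chromatin, stood at 62.7 and 57.5 CPM in HCT-8, with HCT-8/FU at 165 and 147, CM of HCT-8 at 49.0 and 37.0 and CM of HCT-8/FU at 113 and 111. Its log2 fold changes of 1.39 and 1.41 were of the size seen in RANBP2, and 0.95 and 0.99 remained after the correction, both still called. SEC13, a Y complex subunit that also serves in COPII coats, went from 149 and 138 CPM to 74.9 and 76.9 in HCT-8/FU, a log2 fold change of -0.92, against the direction of NUP107. After the correction SEC13 was at -0.81 and still called, and SENP2 at -0.62 was called lower as well. The corrected fit called 15.3% of all genes in HCT-8/FU and 4.80% in the CM comparison.

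Of 18 genes of mRNA and tRNA export, 3 were called higher and 3 lower in HCT-8/FU, and 3 higher in the CM comparison. Of all genes, 13.2% were called higher and 8.12% lower in HCT-8/FU, and 7.97% higher in the CM comparison. The higher ones were the TREX subunits THOC2 (1.13), THOC1 (0.72) and THOC3 (0.61) in HCT-8/FU, and THOC2 (1.25), NXT2 (0.93) and THOC1 (0.71) in the CM comparison. The lower ones were DDX19B (-1.19), XPOT (-0.71) and NXT1 (-0.71). XPOT, the exportin of tRNA, whose symbol lies outside the rule, stood at 503 and 481 CPM in HCT-8 and 304 and 298 in HCT-8/FU, a direction opposite to that of XPO1. XPOT was also called lower in the own-medium comparison, at -0.73, as were THOC2 (-0.64) and DDX19B (-0.61), where 4.29% of all genes were. After the correction, THOC1 (0.056) and THOC2 (0.46) were no longer called in HCT-8/FU, whereas THOC3 (0.68), DDX19B (-1.10), XPOT (-1.15) and NXT1 (-0.59) were. In the CM comparison THOC2 stayed called at 0.59, while NXT2 (0.42) and THOC1 (0.056) did not. In the own-medium comparison DDX19B (-0.69) stayed called, and XPOT (-0.55) and THOC2 (-0.33) did not. The corrected fit called 15.3% of all genes in HCT-8/FU, 4.80% in the CM comparison and 5.48% in the own-medium comparison. Of 10 genes of the nuclear lamina and inner membrane, LMNB1 (1.61), TMPO (0.90) and LBR (0.61) were called higher and EMD (-0.69) lower in HCT-8/FU, and 0 in the CM comparison, where 2 were higher and 3 lower by the adjusted p alone. The all-gene shares of calls are those given for the export genes. By the adjusted p alone, 11.2% of all genes were higher and 8.49% lower in the CM comparison. After the correction LMNB1 was at 1.72 in HCT-8/FU and still called, while TMPO (0.34), LBR (0.36) and EMD (-0.47) were not. LMNB1, lamin B1, was the 1 gene of that list called in the own-medium comparison, at 1.28, where 3.86% of all genes were called higher. It rose there from 33.8 and 30.1 CPM to 83.8 and 70.3 CPM. Like NUP50 it lay above HCT-8 in all 6 libraries of the other groups. The share of all genes for which this holds was not counted.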

How the data were processed

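RNA-seq of 4 groups with 2 replicates each was analysed. Per the study's methods and the submitters' processing notes, the authors used HISAT2 on GRCh38 and HTSeq 0.11.2, and deposited raw counts per gene. The deposited tables of the authors' own comparisons, which hold DESeq2 fold changes and p-values, were not used. Counts were fitted in R 4.3.3 with edgeR 4.0.16 (TMM with HCT-8 replicate 2 as reference, filterByExpr, quasi-likelihood F-test, group means over all 8 libraries, no replicate block), with Benjamini-Hochberg adjustment over 20305 genes. Calls required an adjusted p of at most 0.05 with a log2 fold change of 0.58 or more in size, as in the study's methods. Standard errors were derived from each log2 fold change and its F statistic. The fit was tested on simulated data. Records not assigned to a gene stayed out of library sizes: of a library's records, 3.58% to 29.6% were not aligned, 33.7% to 49.6% met no feature, 1.15% to 1.57% were ambiguous, 2.24% to 3.48% not unique and 2.20% to 5.77% of low quality. Symbols, exons and GC content came from GENCODE 44, where 56105 of the 64253 identifiers were found. Shared sequence was counted as 75-base stretches of a gene's annotated transcripts found, on either strand, in transcripts of any other gene. The gene named beside such a share is the one that holds the most of it.

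Members, roles and lists were chosen with earlier results of these data known. Values in every library are given for XPO1, RAN, KPNB1, for each comparison the 4 members per direction with the largest called change whose groups do not overlap, for members called in the difference, and for further called members described by role. IPO4 is given in counts because it failed the filter. Alternatives were DESeq2 1.42.0, its size factors in edgeR, another TMM reference, other count filters, groups compared only, a replicate block, the adjusted p alone, a term for poorly aligned libraries, a spline correction for GC content and length (5 degrees of freedom), and leaving out each library. Nothing in the sources says that replicates came from separate cultures, so p-values measure the spread between these libraries, which may be technical. Replicates differed by more than sampling noise in every group. The number of counts limits precision: the shallowest library holds 5804124. One leukocyte marker of the lists is not reported here.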

Additional observations from a re-analysis of the deposited data

Results flagged for a closer look

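In 9 of the 54 members tested, the log2 fold change of HCT-8/FU over HCT-8 differed from that of the CM comparison (CM of HCT-8/FU over CM of HCT-8) at an adjusted p of at most 0.05 (edgeR's quasi-likelihood test of the difference itself, with Benjamini-Hochberg adjustment over all genes), where 11.6% of all genes did. The difference was 1.26 for NUP50, 0.71 for NUP43, 0.67 for KPNA2 and 0.65 for XPO1, which also passed the fold threshold. It was 0.49 for NDC1, 0.48 for NUP42 and 0.39 for CSE1L, which did not pass that threshold. For KPNA4 it was -0.42 and for NUP88 -0.39, the change being lower in the resistant line. NUP88 shares 28.7% of its 75-base stretches with other genes, the most with RABEP1. With 2 replicates per group, no single sample was tested as standing apart from its group.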

How the results depend on the processing

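The count of members called was 14 in HCT-8/FU against HCT-8, 9 in the CM comparison, 3 in the own-medium comparison and 4 in the difference. By the adjusted p without the fold threshold these were 34, 14, 20 and 9, where 36.7%, 19.7%, 19.4% and 11.6% of all genes passed. Correcting for GC content and length gave 6, 3, 1 and 3, and with the replicate block added 7, 3, 1 and 3. A term for libraries with many records not aligned (over 15%) lowered the difference to 2. Leaving out single libraries gave 12 to 16, 8 to 10, 2 to 7 and 1 to 5, with 7 in the own-medium comparison when CM of HCT-8 replicate 1 was left out (IPO7, TNPO1 and TPR then also called lower and NUP85 higher). The lone library of a group was then assumed to vary like the other groups. DESeq2 gave 14, 10, 3 and 4, and with another TMM reference 17 were called in HCT-8/FU, where 3166 of all genes were called higher and 1192 lower, against 2677 and 1648 with the reference used, and the median of all genes was 0.099. The groups compared only gave 14, 10 and 2, and this fit does not exist for the difference. No call changed direction under any alternative. Over all called members and alternatives, 508 of 566 calls were kept and 58 lost, 39 of these with the GC correction, with or without the block. The 566 include the adjusted p alone, which cannot lose a call, and fits without a library outside the comparison. The GC correction without the block kept 4 of the 14 calls, 2 of the 9, 1 of the 3 and 3 of the 4. The replicate block gave 14, 10, 3 and 4. Replicate numbers are shared between groups in the titles. The deviations of same-numbered libraries from their group means had correlations from -0.12 to 0.13 across the pairs of groups. This check covers same-numbered libraries only. Apart from the term for libraries with many records not aligned, no grouping that cuts across the numbers was tested. Depth limits IPO4, KPNA7 and NUP210L.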
